A study of Mus musculus with 7 samples.

Results

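The accessible chromatin of 10 genes of the activator protein 1 (AP-1) group and of the wider set of stress-inducible early genes was examined in bulk ATAC-seq of HPC7 cells. The genes were Jun, Junb, Jund, Fos, Fosb, Fosl2, Batf, Atf3, Maff and Egr1, taken by name from the 21951 protein-coding genes of the GENCODE M21 annotation. Every open chromatin region (OCR) that overlapped the body of a gene or the 40 kb on either side of it was assigned to that gene. This gave 228 OCRs out of 144931 merged OCRs in the genome, and no OCR fell into the windows of more than 1 of the 10 genes.

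HPC7 cells are hematopoietic progenitors of the mouse kept as a permanent line, which was made from embryonic stem cells carrying the LIM-homeobox gene Lhx2 and depends on stem cell factor. All 7 libraries bear the same labels, this line with no treatment named, and come from separate culture batches of 1 line. The spread between them is that between cultures and whatever else the names of their peaks, described next, may mark. Inside the lists, the name of every peak starts with EtOH in HPC7-5 to HPC7-8 and with VD in the remaining 3 libraries, for which the labels offer no explanation. The names are not conditions given by the labels, so no test compares them. Values are set side by side by name only as a description, for the direction of the promoter and distal comparison and for the OCRs that differed by name. All 10 hematopoietic progenitor marker genes checked (Kit, Cd34, Gata2, Tal1, Lyl1, Lmo2, Runx1, Spi1, Myb and Ptprc) had a promoter OCR in all 7 libraries. This held for 3 of 8 marker genes of other tissues and for 60.8% of all protein-coding genes. One of the 3, Pax6, had a promoter OCR among the highest 10% in every library, as did 8 of the 10 progenitor genes.

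AP-1 is a dimer of basic leucine zipper proteins, in which a Jun protein pairs with another Jun, a Fos, or an ATF or BATF protein. It binds the palindrome TGANTCA, while dimers with ATF or CREB proteins favour the longer TGACGTCA. Fos, Fosb, Junb, Atf3 and Egr1 are textbook immediate early genes, whose transcription starts within minutes of a signal without new protein synthesis, in part through serum response factor (SRF) bound to CArG boxes near their starts. Maff is a small Maf protein that lacks a transactivation domain, and Egr1 is a zinc finger factor that shares the early gene programme without being part of AP-1. ATAC-seq measures accessibility and not transcription, and in bulk material a site open in few cells cannot be told apart from a site that is weakly open in many.

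The intensity of an OCR is its fold enrichment, the reads at the summit over the background of the library as the peak caller of the authors computed it. The 7 lists held between 84593 and 132852 OCRs. Background was 20.4 reads in HPC7-1 and between 4.44 and 7.45 reads in the other libraries. Because the scale differs between libraries, intensity is also given as a percentile among all OCRs of the same library, and the 90th percentile lay at a fold enrichment of between 46.6 and 68.6. An OCR was called a promoter OCR of a gene when it lay within 3 kb of any of its annotated transcript starts, and distal when it lay over 3 kb from the start of every annotated gene. Distances below run from the summit to the nearest annotated start of the gene.

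The sequences that carry the main loci are given first, in mm10 (GRCm38) and on the strand of the gene, with matches to the motifs searched in capitals. The motifs were TGANTCA for AP-1, TGACGTCA for CREB and ATF proteins, the CArG box for SRF, AGATAA for GATA factors, with TGATAA as its variant, TGTGGT for RUNX proteins, CCGGAA for ETS proteins and GAGGAA for the factor PU.1, on both strands. The 1st is the stretch around the summit of the Fos promoter OCR at chr12:85473549-85473848, all upstream of the Fos start, and its CArG box begins 309 bases before that start:
Fos promoter: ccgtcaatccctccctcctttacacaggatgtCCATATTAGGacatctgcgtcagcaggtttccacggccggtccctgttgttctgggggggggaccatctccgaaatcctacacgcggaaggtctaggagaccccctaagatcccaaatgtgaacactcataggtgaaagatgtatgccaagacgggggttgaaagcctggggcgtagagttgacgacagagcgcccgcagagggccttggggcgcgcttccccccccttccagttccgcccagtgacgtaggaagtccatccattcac
The next pair is the OCR 18.5 kb upstream of Fos, which exceeded the Fos promoter, at chr12:85455262-85455462, and the OCR 11.2 kb downstream at chr12:85485968-85486168, which holds another CArG box:
Fos 18.5 kb upstream: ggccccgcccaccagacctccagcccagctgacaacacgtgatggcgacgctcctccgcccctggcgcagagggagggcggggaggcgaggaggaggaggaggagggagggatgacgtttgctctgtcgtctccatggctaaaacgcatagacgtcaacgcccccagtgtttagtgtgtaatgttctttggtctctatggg
Fos 11.2 kb downstream: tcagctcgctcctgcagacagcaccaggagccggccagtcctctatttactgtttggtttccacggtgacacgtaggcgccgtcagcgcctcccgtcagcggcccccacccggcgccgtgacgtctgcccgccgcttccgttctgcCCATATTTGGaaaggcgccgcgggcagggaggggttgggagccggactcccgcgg
The Junb stretch at chr8:84979993-84980193 is the summit of its promoter OCR, 1.38 kb upstream of the start, and also holds a CArG box:
Junb promoter: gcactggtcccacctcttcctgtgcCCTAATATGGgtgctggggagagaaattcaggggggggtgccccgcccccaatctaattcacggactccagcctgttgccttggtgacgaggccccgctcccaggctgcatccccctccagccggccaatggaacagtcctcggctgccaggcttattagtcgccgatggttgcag
The Maff stretch is the 250 bases before 1 of the 3 RefSeq starts inside its promoter OCR (RefSeq, GRCm38.p6, chr15:79347270-79347519), shown for its TGACGTCA:
Maff promoter: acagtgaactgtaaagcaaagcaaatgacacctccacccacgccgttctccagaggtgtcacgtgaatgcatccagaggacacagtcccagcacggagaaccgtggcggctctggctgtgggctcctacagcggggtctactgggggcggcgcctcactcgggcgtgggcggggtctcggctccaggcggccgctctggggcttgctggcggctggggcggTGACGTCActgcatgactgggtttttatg
The Batf stretch at chr12:85705470-85705670 is the summit of the intronic OCR that exceeded the Batf promoter:
Batf intron: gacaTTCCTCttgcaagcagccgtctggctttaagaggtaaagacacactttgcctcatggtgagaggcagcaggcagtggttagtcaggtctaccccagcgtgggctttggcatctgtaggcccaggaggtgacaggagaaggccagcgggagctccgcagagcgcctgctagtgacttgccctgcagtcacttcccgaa
The Jund stretch at chr8:70682241-70682441 is from the strongest distal OCR of Jund and the only 1 of the 12 distal OCRs chosen by the rule that holds TGANTCA:
Jund 16.6 kb upstream: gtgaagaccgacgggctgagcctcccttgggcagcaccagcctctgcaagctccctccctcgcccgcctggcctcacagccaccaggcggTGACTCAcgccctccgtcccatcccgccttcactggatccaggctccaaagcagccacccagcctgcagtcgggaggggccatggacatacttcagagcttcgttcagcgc
The Fosl2 stretch at chr5:32192148-32192348 is from an OCR not chosen by the rule, whose intensity differed most between the 2 sets of peak names among the 10 loci. It holds TGACTCA and 3 matches to TGTGGT, where 13.0% and 30.8% of distal OCRs in all 7 libraries held TGANTCA and TGTGGT:
Fosl2 45.7 kb downstream: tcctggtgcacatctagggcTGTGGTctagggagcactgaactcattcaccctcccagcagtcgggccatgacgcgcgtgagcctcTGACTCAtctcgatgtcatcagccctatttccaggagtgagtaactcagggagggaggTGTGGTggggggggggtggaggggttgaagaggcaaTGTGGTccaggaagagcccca

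All 10 genes had a promoter OCR in all 7 libraries, where 60.8% of all protein-coding genes did. At 7 of the 10 genes (Jun, Jund, Junb, Egr1, Fosb, Fosl2 and Fos) the highest promoter OCR was at or above the 90th percentile in every library, where 33.7% of protein-coding genes reached that. That share is 7393 genes, all of them among the 13341 with a promoter OCR in all 7 libraries. With lists of equal length, 6 of the 10 genes reached it, and the lowest mean percentile of the 7 named was then that of Fos, at 90.7. The median of the mean promoter percentiles was 95.8 over the 10 genes and 93.1 over the protein-coding genes with a promoter OCR in all 7 libraries. Batf and Atf3 ranked lowest of the 10.

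**Figure D1:**
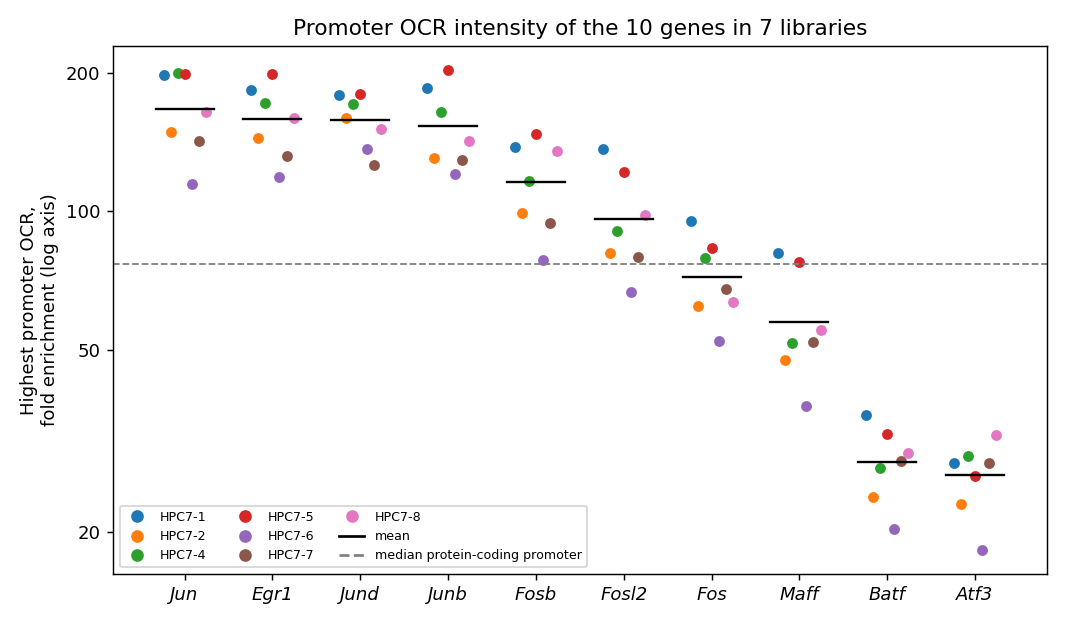
Fold enrichment of the highest promoter OCR (vertical log axis) of each gene (horizontal axis) in 7 libraries, with 1 point per library, a bar for the mean and a dashed line at 76.9, the median over protein-coding genes with a promoter OCR in all 7 libraries. Jun, Egr1, Jund and Junb lie together at 115.0 or above, and Batf and Atf3 lie together at 36.1 or below.

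The Jun family, whose proteins can pair with each other as well as with Fos proteins, had 3 of the 4 promoters of highest mean intensity, with Egr1 the other. At Jun, fold enrichment was 198.0, 149.0, 200.3, 199.4, 115.0, 142.4 and 164.4 in the libraries HPC7-1, HPC7-2, HPC7-4, HPC7-5, HPC7-6, HPC7-7 and HPC7-8, in that order here and below. The mean percentile was 98.8 ± 0.36 (SD, n = 7), and the summit rested on between 734 and 4230 reads. The Jun OCR was 5354 bp wide, with its summit 0.154 kb upstream of the start, and it also lay within 3 kb of starts of the noncoding genes Junos and Gm12703. At Jund, the values were 179.1, 160.2, 171.6, 180.6, 136.9, 126.2 and 151.5, with a mean percentile of 98.6 ± 0.41. At Junb, they were 185.7, 130.8, 165.0, 203.6, 120.9, 129.3 and 142.4, with a mean percentile of 98.5 ± 0.44. In fold enrichment, HPC7-6 and HPC7-7 were the lowest libraries at Jund and HPC7-6 was the lowest at Jun and Junb. By percentile within the library, HPC7-6 was the lowest at Jun (98.3) but the highest at Jund (99.1). The lowest percentiles were then those of HPC7-5 at Jund (98.1) and HPC7-2 at Junb (97.9). The Junb OCR was the widest of the promoter OCRs at 9932 bp, its summit lay 1.38 kb upstream of the nearest Junb start, and it came within 3 kb of a start of Prdx2. The Jund OCR was 7147 bp wide and came within 3 kb of starts of Iqcn, a protein-coding gene, and Gm11175.

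The Fos family, which must pair with a Jun protein to bind DNA, spanned a wider range. At Fosb, fold enrichment was 138.5, 99.4, 116.6, 147.2, 78.4, 94.2 and 135.6 (mean percentile 96.5 ± 0.91), and the summit lay in an exon 0.9 kb downstream of the nearest start. At Fosl2, which encodes FRA2, the values were 136.8, 81.0, 90.8, 122.1, 66.6, 79.6 and 98.3 (mean percentile 95.0 ± 1.32). At Fos they were 95.5, 62.1, 79.2, 83.3, 52.1, 67.7 and 63.5 (mean percentile 92.4 ± 1.42). The Fos promoter was thus the weakest of the Fos family members here, and its lowest percentile in any library was 91.1.

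Apart from Egr1, the genes outside both families (Maff, Batf and Atf3) had the weakest promoters. At Maff, fold enrichment was 81.1, 47.4, 51.6, 77.4, 37.7, 52.0 and 55.1, and the percentile ranged from 87.5 to 93.9 across libraries. At Batf, whose protein pairs with Jun proteins and is best known in lymphocytes, the values were 36.1, 23.9, 27.6, 32.7, 20.3, 28.5 and 29.7 (mean percentile 83.0 ± 2.71). At Atf3, a stress-induced ATF/CREB family member, they were 28.2, 23.0, 29.3, 26.4, 18.3, 28.2 and 32.5 (mean percentile 82.2 ± 3.04). The Atf3 value belongs to the downstream pair of its 3 annotated starts. Near the upstream start, at position 191218039 of chromosome 1, the only OCRs were found in 5 libraries, at a mean percentile of 14.7, and in 1 library.

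Promoter intensities of the 10 genes were compared in all 45 pairs with an exact two-sided sign-flip permutation test over the 7 libraries, and p was adjusted over the pairs by Benjamini-Hochberg. Of these, 38 pairs differed, each with an exact adjusted p of 0.0185. Unadjusted, the smallest exact p that 7 libraries allow is 0.0156. The 7 pairs that did not pass were the 6 among Jun, Egr1, Jund and Junb, with ratios between 0.998 and 1.08 and exact adjusted p between 0.0901 and 0.969, and Batf over Atf3, with a ratio of 1.07, higher in 5 of 7 libraries and an exact adjusted p of 0.268. Between neighbours in the order of means, Junb exceeded Fosb by 1.34 times, Fosb exceeded Fosl2 by 1.20 times, Fosl2 exceeded Fos by 1.33 times, Fos exceeded Maff by 1.27 times and Maff exceeded Batf by 1.99 times, each in 7 of 7 libraries. The chromosome of the gene moved with part of this order. The median protein-coding promoter of chromosome 8, which carries Junb and Jund, was 1.37 ± 0.0424 (SD over libraries) times that of the median autosome, that of chromosome 1, which carries Atf3, was 1.25 ± 0.0336 times, and those of the chromosomes of Jun and Fosb were 0.927 and 1.04 times. With each promoter divided by the median promoter of its chromosome, Jun exceeded Junb (log10 difference 0.21) and Jund (0.20), each with an exact adjusted p of 0.0180 by the same permutation test, Batf exceeded Atf3 (0.11), and Egr1 exceeded Jund (0.14) and Junb (0.16), each with the same adjusted p. In the same comparison 4 of the 38 pairs no longer passed, Junb over Fosb (exact adjusted p = 0.938), Jund over Fosb (0.767), and Jund and Junb over Fosl2 (0.0502 each), and 6 others passed. What sets the difference between chromosomes was not tested.

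The windows differed in how many OCRs they held and whose they were. Of the 228 OCRs, 22 were promoter OCRs of the 10 genes, 89 were promoter OCRs of other genes and 117 were distal, and 112 of the 228 were found in all 7 libraries. Among distal OCRs, 53 of 117 (45.3%) were found in all 7 libraries, against 41.9% of distal OCRs and 46.2% of all merged OCRs in the genome. Of the 228, 47 were found in 1 library only, and 40 of these belonged to HPC7-1. This library had the highest background and the longest list. The matching shares over all merged OCRs are not given here, so these counts do not set the windows apart from the genome.

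**Figure D2:**
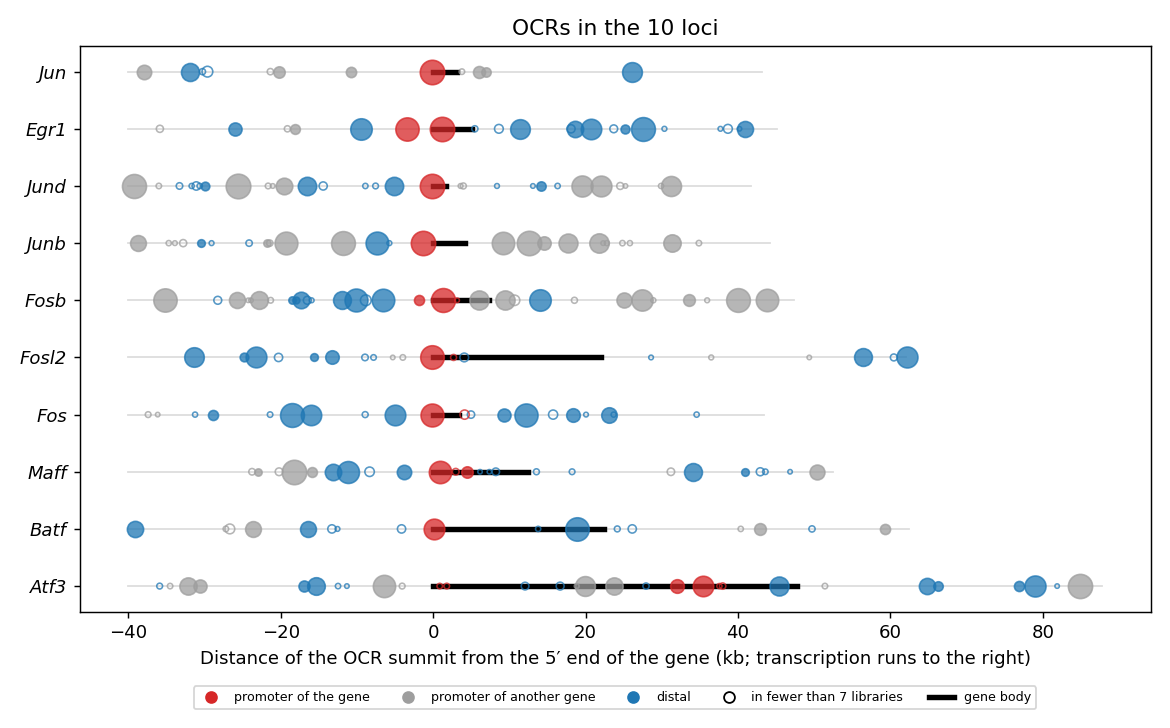
OCRs in the window of each gene, drawn at the distance of their summit from the 5′ end of the gene body (horizontal axis, kb). Marker area grows with the mean percentile, filled markers were found in all 7 libraries, colours give the class, and black bars are gene bodies. Junb (19 of 25 OCRs) is flanked mostly by promoters of other genes, whereas Fos and Egr1 are flanked mostly by distal OCRs.

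In windows of 40 kb, Fos and Egr1 had the most distal OCRs shared by all libraries, 8 each. This placed their windows at the 92.2 percentile of the windows of all protein-coding genes. Fosb, Fosl2 and Atf3 had 7 each, Maff had 5, Jund had 4, Batf had 3, and Jun and Junb had 2 each. The median protein-coding window had 2, and windows of long genes such as Atf3 are longer. The order moved with the settings. At 100 kb Atf3 had 24, Fos had 16 and Egr1 had 11. At 20 kb Fos and Fosb had 7 each and Egr1 had 5, and with lists of equal length Fos, Egr1 and Atf3 had 7 each. OCRs at starts of other genes, shared by all libraries, numbered 5 in the Jun window, 10 each in the Junb and Fosb windows and 6 each in the Jund and Atf3 windows. Examples of OCRs at starts of other genes were one at Prdx2 and Rnaseh2a near Junb (mean percentile 98.9), at Lsm4 near Jund (99.7), at Pla2g6 near Maff (98.9) and at Vasp near Fosb (95.8). When only protein-coding starts removed an OCR from the distal class, Atf3 had 13 distal OCRs in all libraries, Fosb had 11 and Jun had 7. Batf had 5, Junb stayed at 2, and Fos and Egr1 stayed at 8 each and no longer had the most. One of the added OCRs lies at the noncoding gene Gm38161, beyond the 3′ end of Atf3, and had a mean fold enrichment of 141.1 and a mean percentile of 98.0.

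Strong distal OCRs stood at 5 of the 10 loci, in windows of 40 kb and with the starts of all annotated genes set aside. Of the 53 distal OCRs in all 7 libraries, 7 had a mean percentile of 90 or more, where 5.11% of such OCRs in the genome did. They lay near Fos (2), Fosb (2), Junb, Batf and Egr1. With protein-coding starts only, Atf3 also had one, the OCR at Gm38161 (mean percentile 98.0). At Fos, the OCR 18.5 kb upstream (chr12:85454738-85456180, in no annotated gene) had fold enrichments of 135.2, 99.9, 118.4, 140.6, 79.6, 94.1 and 114.3, and the OCR 11.2 kb downstream (chr12:85485221-85488224) had 91.5, 68.0, 74.2, 101.6, 58.0, 63.0 and 87.4. The upstream OCR was therefore above the promoter in each library. At Fosb, a pair of OCRs 6.57 and 10.1 kb upstream had mean percentiles of 90.8 ± 1.9 and 92.5 ± 1.5. At Junb, the OCR 7.39 kb upstream (chr8:84984859-84987114) had fold enrichments of 94.3, 61.5, 61.5, 78.3, 48.2, 64.1 and 75.7. At Batf, the intronic OCR 16.3 kb downstream of the nearest start (chr12:85704301-85706312) had 117.6, 75.5, 106.7, 105.8, 58.0, 86.0 and 100.8, and its lowest value exceeded the highest value of the Batf promoter.

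Whether the promoter or the strongest distal OCR of a locus was the more accessible was compared within each library, with the distal OCR chosen by its highest mean. The promoter was higher in all 7 libraries at Jun, Egr1, Jund, Junb, Fosb and Fosl2, where this held for 75.1% of protein-coding genes with both kinds of OCR. The distal OCR was higher in all 7 libraries at Fos, Batf and Atf3, where this held for 16.5%. All 10 differences passed the exact two-sided sign-flip permutation test, with an adjusted p of 0.0174 at 9 genes and 0.03125 at Maff, adjusted over the 10 genes. The distal OCR was picked as the highest of several in these same libraries, which favours the distal side. The p at Fos, Batf and Atf3 does not allow for that choice. The Batf intronic OCR was 3.24 times its promoter (range over libraries 2.85 to 3.87), the Fos upstream OCR was 1.55 times its promoter (1.39 to 1.80), and the Atf3 OCR 44.1 kb downstream was 1.23 times its promoter (1.03 to 1.43). Its size depended on the OCRs admitted, since the strongest distal OCR was 5.31 times the Atf3 promoter with protein-coding starts only and 4.02 times in windows of 100 kb. In the other direction, the promoter was 10.2 times the strongest distal OCR at Jund, 7.72 times at Jun, 3.01 times at Fosl2, 2.23 times at Junb, 1.60 times at Fosb and 1.45 times at Egr1. These sizes, and their order, also moved with the definition of a distal OCR. Jund fell to 5.34 times with starts taken at 1 kb, Jund and Jun fell to 2.45 and 2.32 times in windows of 100 kb, and Fosl2 and Egr1 rose to 13.0 and 4.13 times in windows of 20 kb. At Maff it was 1.19 times and higher in 6 of 7 libraries, and the exact permutation test no longer passed without HPC7-1 or without HPC7-6 (adjusted p = 0.0625 for each), although the ratio stayed at 1.15 and 1.20 times. With 6 libraries the smallest exact p is 0.03125. The Atf3 direction rested on the window, since within 20 kb of the gene its promoter was 1.51 times the strongest distal OCR. Except at Maff, the direction was the same in all 3 libraries with VD names and in all 4 with EtOH names.

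**Figure D3:**
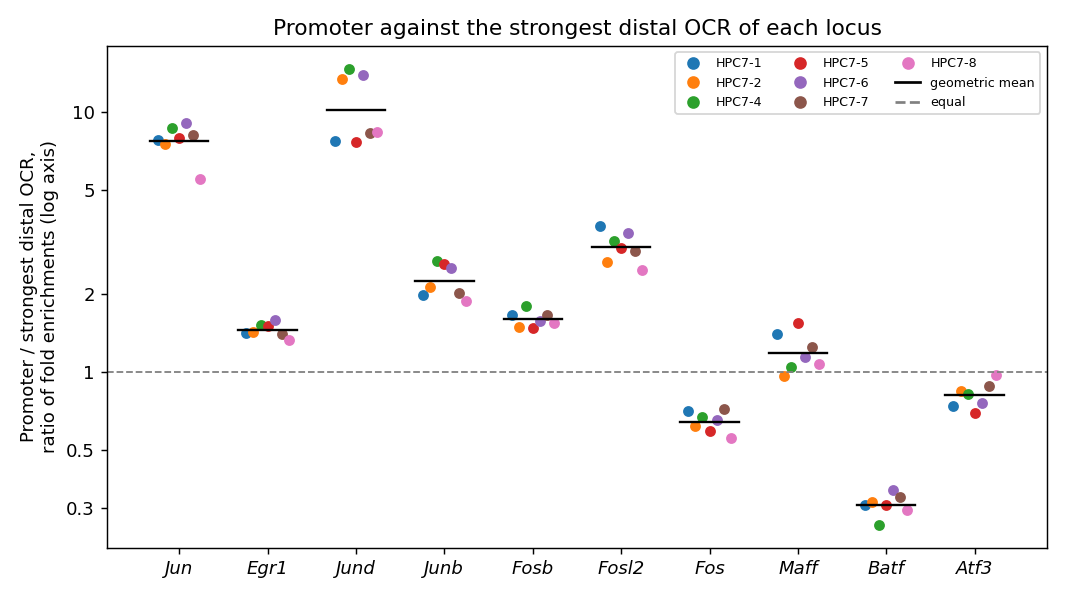
Ratio of the promoter fold enrichment to that of the strongest distal OCR (vertical log axis) at each locus, with 1 point per library, a bar for the geometric mean and a dashed line at equal intensity. All 7 points lie below the line at Fos, Batf and Atf3 and above it at 6 genes, and Maff straddles it.

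Like Junb, Fosb and Fos, Egr1, the early gene outside AP-1, had both a strong promoter and a distal OCR with a mean percentile of 90 or more. Its promoter had fold enrichments of 184.3, 144.4, 172.5, 199.6, 118.7, 132.2 and 159.8 and a mean percentile of 98.6 ± 0.24. Its OCR 26.2 kb downstream of the nearest start had 130.4, 101.6, 113.6, 132.6, 75.2, 94.8 and 120.6, at a mean percentile of 96.2 ± 0.74. Another OCR, with its summit 3.4 kb upstream and its edge within 3 kb of the start, counted as promoter and had a mean percentile of 93.9. In the 150 bp on either side of the promoter summit, 4 CArG boxes were found, the most of the OCRs searched.

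In the 100 bp on either side of the summit, 11 of the 22 OCRs chosen by the rule (the strongest promoter OCR and strongest distal OCR of each gene, plus the other distal OCRs at or above the 90th percentile) held a match to at least 1 motif. These were 4 of 10 promoter OCRs and 7 of 12 distal OCRs, where 59.9% of promoter and 70.9% of distal OCRs found in all 7 libraries held such a match. A CArG box stood in 1 of 10 promoter OCRs (Junb) and 1 of 12 distal OCRs (Fos, 11.2 kb downstream), where 0.946% of promoter and 1.06% of distal OCRs in all 7 libraries held one. Within 150 bp, CArG boxes stood in 4 of the 22, now with the promoters of Fos and Egr1, against 1.39% of promoter and 1.63% of distal OCRs. Within 50 bp they stood in 0 of the 22, against 0.354% of promoter and 0.470% of distal OCRs. TGANTCA stood in 0 of 10 promoter OCRs and 1 of 12 distal OCRs, against 8.09% and 13.0% in the genome. TGACGTCA stood in the Maff promoter alone, and also within 150 bp of the Jund promoter summit, against 1.15% of promoter OCRs at 100 bp. AGATAA stood in 0 of the 22, and in 1 within 150 bp, against 10.1% of promoter and 17.6% of distal OCRs at 100 bp. In the 250 bases before RefSeq starts, however, AGATAA stood in 3 of 11 entries, against 9.99% of all RefSeq promoters. These were 1 each of Jun, Batf and Maff. No entry held TGANTCA or a CArG box, against 6.75% and 1.47%. Egr1, with its CArG boxes near the promoter summit, had no entry among the 11. The Batf entry alone held the RUNX motif (2 matches), against 14.05%, and the ETS motif (1 match), against 12.03%. GAGGAA stood in entries of Atf3 and Maff, against 23.25%. In the same entries TGATAA stood in that of Atf3, against 7.94%, and TGACGTCA in 1 of Maff, against 1.55%. TGATAA stood in 1 of 12 distal OCRs (Atf3), against 11.6%, and in 0 of 10 promoter OCRs, against 6.81%. TGTGGT stood in 2 of 12 distal OCRs (Fosb and Maff), against 30.8%, and in 0 of 10 promoter OCRs, against 20.4%. CCGGAA stood in 2 of 10 promoter OCRs (Egr1 and Maff), against 11.5%, and in 1 of 12 distal OCRs (Fosl2), against 3.12%. GAGGAA stood in 1 of 10 promoter OCRs (Fosl2), against 25.3%, and in 1 of 12 distal OCRs (Batf), against 31.0%. A match describes letters in these windows and not binding.

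At Fosl2, 1 distal OCR differed more between the 2 sets of peak names than any other OCR of the 10 loci. This OCR (chr5:32191802-32192679, 45.7 kb downstream of the nearest Fosl2 start, in no annotated gene) was found in all 7 libraries, with fold enrichments of 51.0, 32.5 and 32.3 in HPC7-1, HPC7-2 and HPC7-4 and of 15.5, 6.9, 6.8 and 9.3 in HPC7-5 to HPC7-8. Every library with VD names was above every library with EtOH names, and the mean difference was 2.01 on the log2 scale after centring each library on its median. By contrast, the Fosl2 promoter and the OCR 51.4 kb downstream, at 37.7, 30.7, 28.5, 40.7, 19.4, 27.4 and 39.8, overlapped between the 2 sets of names. The next largest difference among the 112 OCRs of the 10 loci found in all 7 libraries was 0.41, and 3 of the 112 lay higher and 3 lower in all VD than in all EtOH libraries. In the genome, 4.05% of OCRs in all 7 libraries lay higher and 2.59% lower by that measure, 0.263% lay higher with a difference over 1 on the log2 scale, and none lay lower by more than 1. The Fosl2 OCR had rank 28 among 66979 by this difference. Since the labels give all 7 libraries 1 condition, these values are a description of the libraries, with no test. The nearest annotated start was that of the pseudogene Gm9555 at 6.75 kb and the nearest protein-coding start was that of Plb1 at 40.5 kb.

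**Figure D4:**
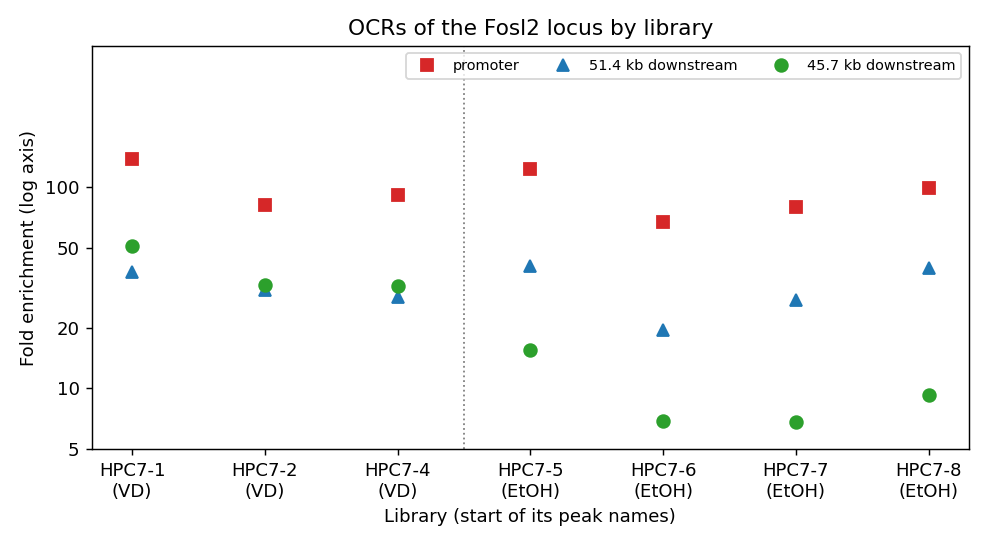
Fold enrichment (vertical log axis) of the Fosl2 promoter OCR and of the OCRs 51.4 and 45.7 kb downstream in each library (horizontal axis, with the start of its peak names). The OCR 45.7 kb downstream is at 32.3 or above left of the dotted line and at 15.5 or below right of it, and the others overlap.

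Of 37 further genes of the same pathways (other AP-1, ATF, Maf, Egr and Nr4a members, early response genes and their kinases and factors), 36 had a promoter OCR in all 7 libraries and 31 were at or above the 90th percentile in each. Their median mean percentile was 96.4. The highest were Srf (mean fold enrichment 226.0 ± 43.4), which encodes the factor that binds CArG boxes, Creb1 (206.0 ± 42.1) and Atf5 (203.8 ± 42.0). Egr4 had no promoter OCR in any library. Among the relatives of Batf, Atf3 and Maff reported here, Batf3 (mean percentile 77.3), Maf (77.1) and Jdp2 (87.3) lay below the 90th percentile, while Batf2 (95.7), Atf2 (97.9), Atf4 (94.4), Atf5 (99.5), Atf7 (98.4), Mafg (94.3) and Mafk (94.6) lay above it. Fosl1, of the Fos family, lay at 70.5. These relatives are named after their values were seen.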

How the data were processed

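The 10 genes, the marker and pathway lists and the tests were chosen with earlier results of these data known. Reads of 7 bulk ATAC-seq libraries were trimmed with Cutadapt, aligned to mm10 with BWA and used to call peaks with MACS2 in each library by the authors, with versions and options not given in the sources used here. The deposited fold enrichment is a ratio of summit reads to background. The deposited -log10 p, -log10 q and score were used only for checks and for 1 alternative. Scaling between libraries is not mentioned in the sources used here.

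Within a library all fold enrichments were whole multiples of 1 step (100% within 0.02 of a step), which gave background and summit reads. Peaks overlapping by 1 bp were merged, and an OCR took its highest peak in each library and the summit of its highest peak. A library without a peak was set to its lowest listed value. Genes were from GENCODE M21 and sequences from GRCm38. The 11 RefSeq promoter entries found, none of them of Egr1, matched the genome base for base. The OCRs chosen by the rule were the strongest promoter and distal OCR of each gene and each distal OCR in all libraries with a mean percentile of 90 or more. Outside the rule, OCRs at starts of other genes, another promoter OCR of Egr1 and OCRs near the upstream Atf3 start are also named. The Fosl2 OCR that varied between libraries was named after its values were seen. Sign-flip tests used all 128 sign patterns. Interval functions and tests were tested on simulated data. Alternatives were a promoter distance of 1 kb, a -log10 q of at least 5, equal list lengths, windows of 20 and 100 kb, other scales and starts, and HPC7-1 or HPC7-6 left out. Depth is given here only as background reads computed from the lists, and p measures the spread between these 7 libraries. Python 3, numpy, pandas, scipy and matplotlib were used. The promoter of 1 listed gene is counted but not reported here by name.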

Additional observations from a re-analysis of the deposited data

Results flagged for a closer look

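HPC7-1, the library with the highest background and the longest list, was the highest by a gap that was large for the range of the 7 libraries in 8 of 30 values checked, and no other library stood apart in this way. Chance alone sets about 1 in 20 such groups apart. It listed 27 OCRs in the Jund window (next highest library 18), 25 at Junb (18), 19 at Fosl2 (13), 24 at Maff (15), 17 at Batf (11) and 30 at Atf3 (22). The Egr1 promoter percentile was 99.2 in HPC7-1 (98.6 in the next library) and that of Fosl2 was 97.6 (95.5).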

How the results depend on the processing

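All 10 promoters stayed in all 7 libraries with a promoter distance of 1 kb, with -log10 q of at least 5 and with lists of equal length. The number in the top 10% of every library was 7, and 6 with lists of equal length. The number of pairs that differed was 38, and 40 after division by the chromosome median (4 lost and 6 gained), where Egr1 lay above Jund (log10 difference 0.14) and Junb over Fosb turned to -0.00487. The distal OCRs in all libraries numbered 53 and fell to 34 with 50% reciprocal overlap and 35 in windows of 20 kb, rose to 109 in windows of 100 kb, and were 54 without HPC7-1 and 58 without HPC7-6. The promoter exceeded the strongest distal OCR at 7 genes and fell below it at 3, which became 2 with windows of 20 kb, where Atf3 turned to a ratio of 1.51 and Jun had no distal OCR to compare. OCRs with a motif match numbered 11, 4 within 50 bp and 16 within 150 bp of the summit. The cause of these shifts was not tested, except that smaller windows hold fewer OCRs. The tests above pair OCRs by library. No paired analysis between groups was possible because the labels give 1 group.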
